A study of Caenorhabditis elegans with 2 samples.

Results

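Chaperones help other proteins reach and keep their folded state. The 65 genes described here are the nuclear coding genes of Caenorhabditis elegans whose Ensembl name starts with dnj-, cct-, pfd- or hsp-, out of 19973 nuclear coding genes. They were chosen by these name prefixes, and the group was proposed with earlier results of the same data known, so its binding is given as a description with no test. The families are 29 dnj genes, 8 cct genes, 6 pfd genes, 16 hsp genes outside the hsp-16 group and the 6 hsp-16 genes.

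LIN-35 ChIP-seq was done on whole young adult worms of pooled sexes, as 1 group of 2 biological replicates, with an antibody listed as against LIN-35 and chromatin broken by sonication. The strain, YL521, carries the mutation unc-119(ed3) on chromosome III and the transgene vrIs117, which places LIN-35 tagged with GFP and FLAG behind a pie-1 promoter and ahead of a puf-5 3'UTR and includes an unc-119(+) copy. Both regulatory sequences come from germline-expressed genes, and the share of transgenic and endogenous LIN-35 in the precipitate, and the tissue it came from, are not given in the labels. All worms came from this 1 strain, the control was not analysed here, and peak lists hold no expression values against which the tissue could be checked.

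LIN-35 is the retinoblastoma-like pocket protein of C. elegans. It acts in the DREAM complex, a repressor that reaches DNA through an E2F and DP pair and through LIN-54, which reads CHR elements. Among chaperones, J-domain proteins (dnj) hand clients to HSP70 and stimulate its ATPase, while HSP110 exchanges its nucleotide. Prefoldin (pfd) is a jellyfish-shaped holder that passes unfolded actin and tubulin to the ring-shaped cytosolic chaperonin CCT (cct). Small heat shock proteins bind unfolding proteins without using ATP, and the hsp-16 genes are the classical worm genes that are near silent at normal temperature and strongly induced by heat through HSF-1.

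Peak lists were used as deposited: a thresholded list of 2712 peaks, a relaxed list from pooled replicates and a relaxed list from each replicate. Each peak has a signal whose scale is not stated, so signals and ranks are compared within 1 list. The thresholded peaks are the 2712 strongest of the 30000 pooled peaks, so both lists give a bound gene the same signal. Read numbers were not analysed here and the depth of each library is unknown. A gene is called bound where a thresholded summit, the highest point of a peak, lies within 500 bp of its annotated 5' end.

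LIN-35 summits lay at 24 of the 65 chaperone genes (36.9%), against 8.61% of all nuclear coding genes. The bound genes all came from the prefoldin, CCT, HSP70 and HSP110, and J-domain classes. Prefoldin had 4 of 6 genes bound (66.7%), CCT 5 of 8 (62.5%), the HSP70 and HSP110 class 4 of 6 (66.7%) and the J-domain proteins 11 of 29 (37.9%). The small heat shock proteins had 0 of 13, made up of 0 of 6 in the hsp-16 group and 0 of 7 others, and HSP60 and HSP90 genes had 0 of 1 and 0 of 2. Classes this small would hold few bound genes at the 8.61% share, so counts of 0 do not set them apart from coding genes. Over all hsp-named genes the count was 4 of 22 (18.2%). These shares count genes, several of which share a function or a summit, and do not measure variation between animals.

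**Figure D1:**
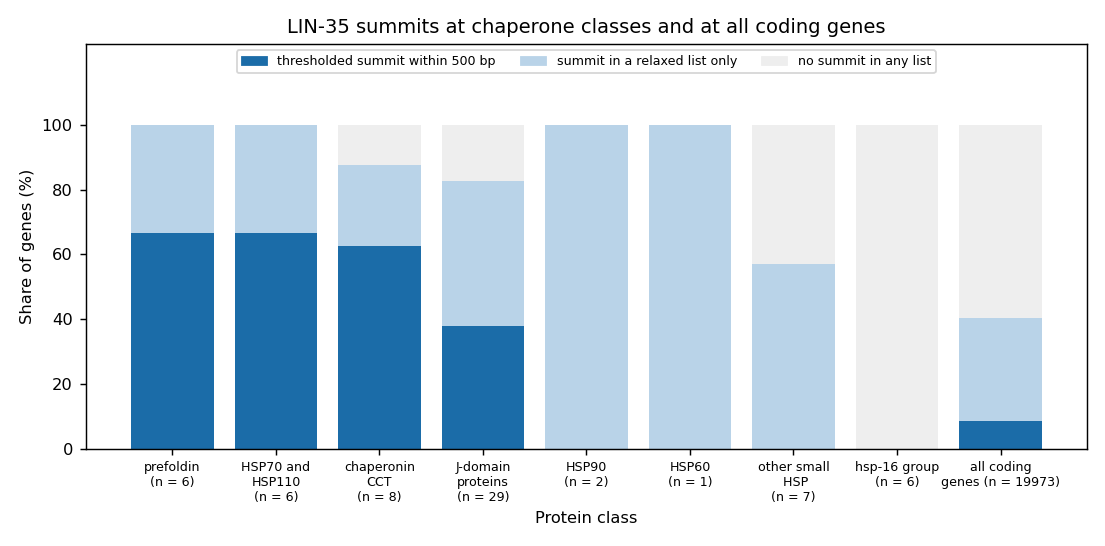
Share of genes (%) in each chaperone class, with all nuclear coding genes in the last bar: dark blue, a thresholded LIN-35 summit within 500 bp of the 5' end; light blue, a summit in a relaxed list only; grey, no summit in any of the 4 lists. The prefoldin, HSP70 and CCT bars reach 62.5% to 66.7% in dark blue, the hsp-16 bar is grey throughout, and 8.61% of all coding genes are dark blue.

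The relaxed lists gave higher shares for chaperone genes and for coding genes alike. The pooled relaxed list had a summit at 46 chaperone genes (70.8%) and at 29.2% of coding genes. Replicate 1 had 42 (64.6%) beside 31.1%, and replicate 2 also had 42 (64.6%) beside 28%. Any of the 4 lists gave 50 members (76.9%) beside 40.3% of coding genes, namely 24 dnj, 7 cct, all 6 pfd and 13 of 16 hsp genes, with none of the hsp-16 group. The members with no summit in any list were dnj-7, dnj-17, dnj-24, dnj-26, dnj-27, cct-3, hsp-12.2, hsp-12.6, hsp-17 and the 6 hsp-16 genes.

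Both replicates carried most of the binding. With each replicate list kept to its 2712 strongest peaks, replicate 1 had a summit at 22 members (33.8%) against 7.75% of coding genes. Replicate 2 likewise had 22 (33.8%) against 8.47%. A summit among the strongest peaks of both stood at 18 members (27.7%), all of them among the 24, against 5.65% of coding genes. Of the other 6 bound genes, dnj-12, dnj-14 and dnj-22 reached this level only in replicate 2, and dnj-23, cct-5 and pfd-4 only in replicate 1.

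The DNA at the summits was searched for words that E2F factors and LIN-54 are known to read, and for pieces of the elements that HSF-1 reads. Some bound chaperone genes held such words and others did not. The E2F words were searched on both strands: TTCCCGC, or TTCGCGC, or TTGCCGC, or TTGGCGC. The next lines give, in the direction of the chaperone gene and 5' to 3', the 30 bases around the E2F word nearest the summit of dnj-9 (chromosome II, 4851833 to 4851862, plus strand), cct-8 (chromosome IV, 1094331 to 1094360, minus strand) and cct-5 (chromosome III, 4508558 to 4508587, minus strand). They are shown because these genes hold the highest, the second highest and the farthest summit of the group. Capitals mark the word, and the bases are those of the RefSeq WBcel235 genome, the assembly of ce11.
dnj-9: ttcagtgcgggTTGGCGCaattgccgatca
cct-8: acatctcccgtgGCGGCAAatcgcggcggg
cct-5: aaaattgcggacTTGCCGCgtacaccatga
The words lie 11, 16 and 11 bp from the summits of dnj-9, cct-8 and cct-5. The match is one of letters and says nothing of which protein was there.

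Heat shock elements are repeats of the letters GAA in alternating orientation, which HSF-1 reads. The pair searched was either GAANNTTC or the reverse arrangement TTCNNGAA, and a triplet is both pairs sharing their middle block. The next lines show, from the same genome and again in the direction of each gene, a pair within 100 bp of the summit at hsp-1 (chromosome IV, 17278594 to 17278623, plus strand), cct-1 (chromosome II, 8185240 to 8185269, plus strand), cct-6 (chromosome III, 5855908 to 5855937, minus strand) and hsp-110 (chromosome III, 8447123 to 8447152, minus strand), and the triplet 64 bp upstream of hsp-16.2 (chromosome V, 1805007 to 1805036, minus strand). They set bound folding genes beside an inducible gene without a summit, and capitals mark the pair or triplet. In the hsp-110 line another pair overlaps the marked one, and together they form a triplet of which only the marked pair is in capitals.
hsp-1: cttttcgtcgcGAACATTCtctgcggaggc
cct-1: atgcgctctgaGAATATTCtacaagaattt
cct-6: gcgaatttattTTCTAGAAtaaattcaaac
hsp-110: agacgtttctcGAATATTCggtgtgccttt
hsp-16.2: aagcagctcGAATGTTCTAGAAaaaggtgg
The hsp-16.1 promoter holds the same 30 bases as hsp-16.2, at chromosome V, 9087858 to 9087887, minus strand, 90 bp upstream of its 5' end.

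Counted over whole groups, the E2F words stood within 100 bp of the summit at 4 of the 24 bound chaperone genes (16.7%; dnj-9, dnj-12, cct-5 and cct-8), against 335 of 1354 thresholded summits at coding 5' ends (24.7%). CHR words, TTCGAA or TTTGAA, stood at 14 of 24 (58.3%) against 55.2% of those summits. Neither share was far from that of LIN-35 summits in general. The heat shock pair stood at 13 of 24 (54.2%) against 287 of 1354 (21.2%). It was found at dnj-10, dnj-13, dnj-19, dnj-23, cct-1, cct-5, cct-6, cct-8, pfd-4, pfd-5, hsp-1, hsp-6 and hsp-110, which spans all 4 name families. Within 50 bp of the summit the pair stood at 5 of 24 (20.8%) against 7.09%. Mean GC content of the 100-bp windows was 40.3% at the bound members and 40.2% over all such summits. At dnj-23 and pfd-5 a heat shock pair overlaps a CHR word.

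**Figure D2:**
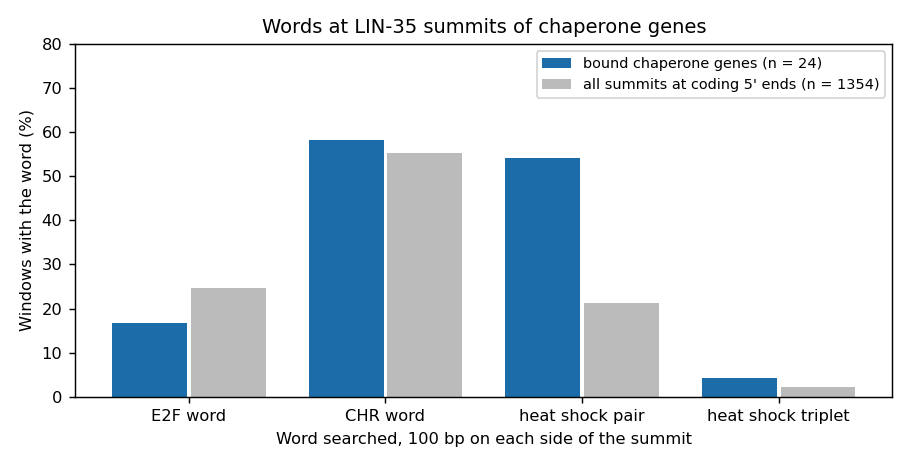
Share of windows (%, 100 bp on each side of the summit) that hold each word, for the 24 bound chaperone genes in blue and all 1354 thresholded summits at coding 5' ends in grey. The heat shock pair bars stand at 54.2% and 21.2%, the E2F bars at 16.7% and 24.7%.

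In promoters, taken as 250 bases before to 50 after the 5' end whether bound or not, the heat shock pair was in 32 of the 65 members (49.2%) against 32.5% of 19973 coding promoters. By family it was in 7 of 8 cct, 4 of 6 pfd, 6 of 6 hsp-16, 6 of 16 other hsp and 9 of 29 dnj promoters, the last 2 shares (37.5% and 31%) lying near that of all coding promoters. The triplet was in 11 members (16.9%) against 1.97% of coding promoters: all 6 hsp-16 genes, hsp-1, hsp-70, hsp-90, hsp-110 and dnj-12. The hsp-16 genes lie in head to head pairs, and the same triplet was counted for both genes of a pair. Thus the triplet occurred in promoters of genes with a thresholded LIN-35 summit (hsp-1, hsp-110, dnj-12) and of genes with none. Within 100 bp of the strongest summit itself it stood only at hsp-110, 1 of 24 bound genes (4.17%). Over all thresholded summits at coding 5' ends the share was 2.22%. E2F words were in 3 promoters (4.62%; dnj-9, dnj-14 and pfd-3) against 9.2%. CHR words were in 52 (80%) against 68.9%.

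Prefoldin is a hexamer of different subunits, each from its own gene. The strongest subunit gene was pfd-6, with a signal of 391.8 in the pooled list, 163 in replicate 1 and 223 in replicate 2. Next came pfd-5 with 244, 114 and 113, and pfd-1 with 218, 59.0 and 142 in the same 3 lists. These 3 ranked 93, 192 and 228 among all thresholded peaks, and were among the strongest peaks of both replicates. The pfd-5 summit lay 172 bp upstream of the gene in a peak at chromosome III, 7198953 to 7199167, with no other annotated 5' end within 500 bp. The pfd-4 summit was far weaker, at 46.8 pooled, 24.1 in replicate 1 and 11.8 in replicate 2, where it ranked 7843.

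The other prefoldin genes had no thresholded summit. pfd-2 had 6.17 in the pooled list and 3.93 in replicate 1, with none in replicate 2. pfd-3 had a summit 10 bp from its 5' end in replicate 2 alone, with a signal of 52.8 and rank 1066. Replicate 1 and the pooled list had none there, and the nearest pooled summit was 663 bp away with a signal of 6.18. The replicates thus did not give the same picture of pfd-3.

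CCT is built from 8 different subunits, and their genes ranged from one of the strongest summits of the group to none. cct-8 (theta) had a signal of 453 pooled, 175 in replicate 1 and 279 in replicate 2, with ranks of 69, 70 and 73. cct-1 (alpha) had 233, 87.1 and 142 in these lists, ranked 206, 203 and 224. Both genes thus held nearly the same place in each list. cct-6 (zeta) did not: its pooled signal was 207 at rank 244, with 31.2 at rank 1187 in replicate 1 and 172 at rank 170 in replicate 2.

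The other CCT genes had lower signals. cct-7 (eta) had 70.5 pooled, 37.5 in replicate 1 and 44.5 in replicate 2. cct-5 (epsilon) had 89.2 pooled and 28.9 in replicate 1, and replicate 2 had no summit within 500 bp, its nearest being 1376 bp away at 3.13. The gene is bound by the pooled list with support from 1 replicate. cct-4 (delta) was the unbound member nearest the signal threshold, with 32.2 pooled at rank 4005, while the lowest thresholded signal was 41.9 and the lowest bound member was pfd-4 at 46.8. cct-2 (beta) had 20.2 pooled and no summit in replicate 1. cct-3 (gamma) had none in any list.

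All 5 bound CCT summits lay closer to another coding gene, transcribed the opposite way, than to the CCT gene. The cct-8 summit (chromosome IV, 1094230 to 1094486) was 441 bp upstream of cct-8 and 180 bp from Y55F3AR.2, a thioredoxin domain gene. That of cct-1 (chromosome II, 8185096 to 8185325) was 232 bp upstream of it and 188 bp from mig-5, a Dishevelled homolog of Wnt signalling. The cct-6 summit (chromosome III, 5855874 to 5856066) was 296 bp upstream and 35 bp from alh-9, an aldehyde dehydrogenase gene. For cct-5 and cct-7 the distances were 469 and 329 bp, against 272 bp to F25F2.1 and 110 bp to T10B5.4. Which of the genes at each summit the binding serves was not tested.

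Among HSP70 genes, hsp-1 encodes the constitutive cytosolic HSP70 (HSC70). Its signal was 188 pooled, 74.7 in replicate 1 and 119 in replicate 2, from a summit 357 bp upstream at chromosome IV, 17278481 to 17278696. hsp-110, the HSP110 exchange factor, had 226, 85.6 and 138. Its summit lay 260 bp upstream, and 184 bp from the divergent rpn-3, which encodes a proteasome regulatory subunit. hsp-6, the mitochondrial HSP70, was the weakest of the bound class with 60.9, 29.8 and 27.5, and its summit was nearer C37H5.5, a nucleolar complex protein 3 homolog, at 203 bp than hsp-6 at 397 bp.

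C. elegans has a pair of genes for BiP, the HSP70 of the endoplasmic reticulum, and they differed. hsp-3 had 158 pooled, 45.6 in replicate 1 and 114 in replicate 2, with its summit 76 bp upstream on the X chromosome. hsp-4, the copy known for strong induction by the unfolded protein response, had 9.96 pooled, none in replicate 1 and 14.6 in replicate 2. The heat-inducible hsp-70 had a summit of 14.5 in replicate 2 alone. hsp-4 and hsp-70 are named after their values were seen. The difference between the copies is between 2 genes and has no test.

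In the HSP60 and HSP90 classes, hsp-60 and hsp-90 had a thresholded peak between 500 and 1000 bp from the Ensembl 5' end, and hsp-75 had none. hsp-60, the mitochondrial chaperonin, had a thresholded summit 621 bp upstream with a signal of 307 and rank 131, at chromosome III, 1618983 to 1619249. That summit was 192 bp from the divergent Y22D7AL.10, which RefSeq names as the 10 kDa mitochondrial heat shock protein, the lid of the same chaperonin. hsp-90 had one at chromosome V, 14685627 to 14685901, with a signal of 267 and rank 166. It lay 836 bp downstream of the Ensembl 5' end but 406 bp from the RefSeq one, since the annotations place that end 1242 bp apart, and 269 bp from C47E8.4. hsp-75, which encodes an HSP90-type ATPase, had a summit of 5.66 in the pooled list and none in either replicate. These 3 genes are named after their values were seen. Counting to 1000 bp gave 28 members (43.1%) against 10.9% of coding genes, adding dnj-5, hsp-12.3, hsp-60 and hsp-90.

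The J-domain proteins are the largest and most varied family, and the pooled signals of the bound ones ran from 58.3 to 604. dnj-9 had the highest signal of any chaperone gene, 604 pooled, 255 in replicate 1 and 356 in replicate 2, with ranks of 32, 34 and 43. Its peak (chromosome II, 4851693 to 4852006) had its summit 220 bp upstream, and no other annotated 5' end lay within 500 bp. RefSeq describes the product only as a J domain-containing protein.

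dnj-19, which encodes a general type A co-chaperone of cytosolic HSP70, had 229 pooled, 111 in replicate 1 and 118 in replicate 2. Its summit was 418 bp upstream of dnj-19 and 22 bp from nhr-47, a nuclear hormone receptor gene, within a 5' UTR. dnj-28 followed with 178, 69.3 and 114.8, dnj-13 with 137, 77.2 and 71.9, and dnj-10, a mitochondrial J protein, with 124, 37.3 and 88.7. These 5 genes ranked from 32 to 566 in the thresholded list and all were among the strongest peaks of both replicates.

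The remaining 6 bound dnj genes had pooled signals from 58.3 (dnj-23) to 79.8 (dnj-22). Among them, dnj-29 and dnj-11 were among the strongest peaks of both replicates. dnj-11 encodes the homolog of the ribosome-bound DNAJC2, and had 62.2 pooled, 28.6 in replicate 1 and 43.1 in replicate 2. dnj-14, the homolog of the synaptic vesicle cysteine string protein, had 77.1 pooled and 60.1 in replicate 2, with 16.6 in replicate 1, below the 19.3 at which the strongest peaks of that replicate end. dnj-12 and dnj-22 had the same split, with 16.16 and 18.02 in replicate 1. dnj-12 also had a second thresholded summit 38 bp from its 5' end, with a signal of 53.9.

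**Figure D3:**
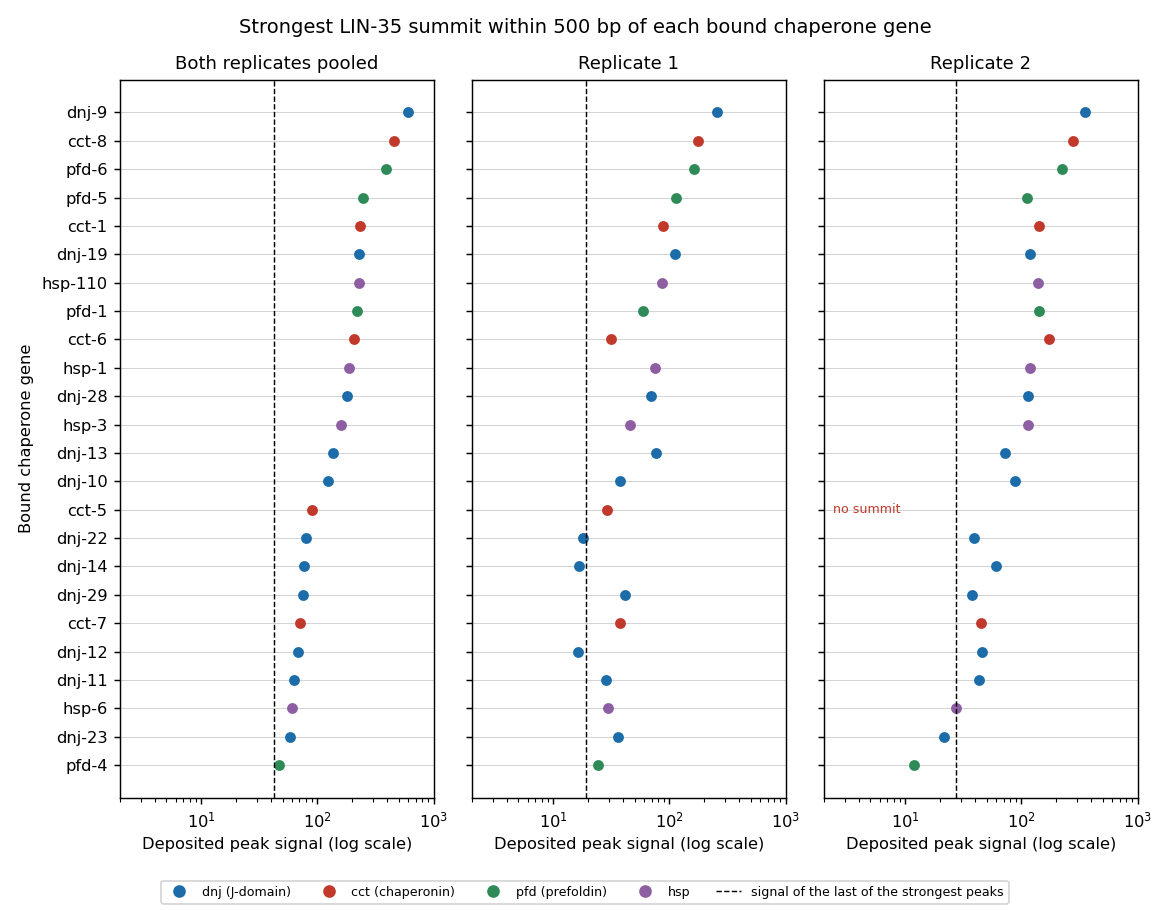
Deposited peak signal (log scale, scale of the unit not stated) of the strongest summit within 500 bp of each of the 24 bound chaperone genes, in the pooled list and in each replicate; colours give the family and the dashed line the signal at which the 2712 strongest peaks of that list end. dnj-9, cct-8 and pfd-6 lead all 3 panels, cct-5 has no point in replicate 2, and dnj-12, dnj-14 and dnj-22 fall left of the line in replicate 1.

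The 18 unbound dnj genes include dnj-2, dnj-3, dnj-4, dnj-8, dnj-15, dnj-18, dnj-21 and dnj-30, whose 5' end follows another coding gene on the same strand within 500 bp. Such close same-strand neighbours are common in worm operons, where one promoter can serve several genes. They occurred at 9 of the 41 unbound members, hsp-75 being the ninth, and at 4 of the 24 bound ones (dnj-9, dnj-10, pfd-4 and pfd-6). For dnj-2 and dnj-4 the upstream gene was itself bound. The opposite arrangement, in which the next gene upstream is read away from the chaperone gene, was found at 19 of 24 bound members and at 21 of 41 unbound ones. Unlike the same-strand count, this one had no limit of distance. Its gaps reached 3321 bp among bound members (pfd-5) and 9697 bp among unbound ones (dnj-27), so the 2 arrangements are not counted alike. Neither arrangement was counted over all coding genes, so these counts have no general share beside them. Whether either arrangement has a part in the binding was not tested.

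Position and neighbours are given next for the bound chaperone genes beside all bound coding genes, as a description. All 24 summits were upstream of the chaperone gene, against 1533 of 1719 bound coding genes (89.2%). Their median distance was 261 bp with a range of 51 to 469 bp, against a median of 194 bp. Another coding 5' end lay within 500 bp of the same summit at 16 of 24, against 44%, and was the nearer one at 15 of 24, against 22.3%. Of the summits, 20 were intergenic, 3 lay in exons of noncoding genes and 1 in a 5' UTR. The median signal was 147 at the bound chaperone genes and 86.1 at all bound genes.

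**Figure D4:**
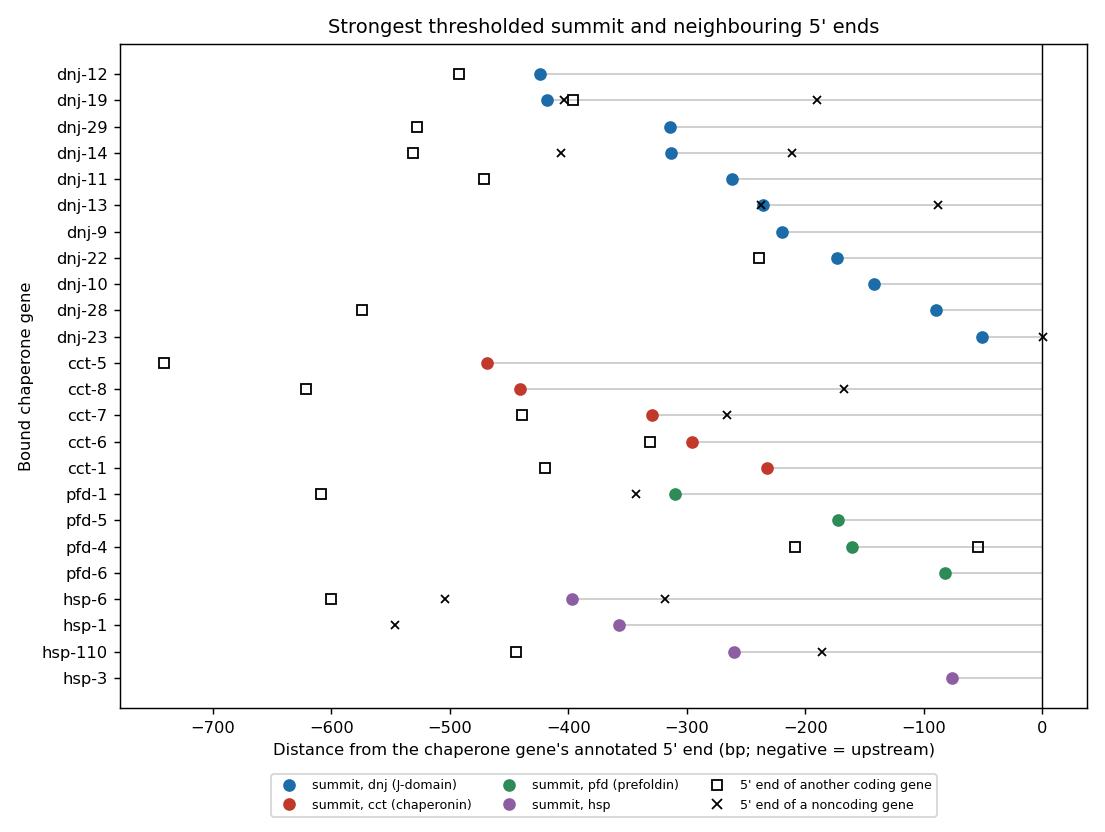
Position (bp, negative values upstream) of the strongest thresholded summit, as a coloured dot, relative to the 5' end of each of the 24 bound chaperone genes at 0, with 5' ends of other coding genes as squares and of noncoding genes as crosses. All dots are upstream, from 51 bp (dnj-23) to 469 bp (cct-5), and every cct row has a square on the far side of the dot.

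How a summit is assigned therefore matters for this group. At 200 bp 9 members were bound (13.8%) against 4.49% of coding genes, and no cct gene was among them. Giving each summit only to its nearest coding 5' end left 10 members (15.4%) against 6.71%, again without a cct gene. In both cases the share stayed above that of coding genes but by less than at 500 bp. Signal had a smaller effect: the strongest 1356 peaks kept 19 members (29.2%) against 5.52%. The farthest bound member was cct-5 at 469 bp and the nearest beyond the limit hsp-60 at 621 bp.

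The hsp-16 genes are paired head to head on chromosome V, so that each pair shares the DNA between its start sites. No list had a summit within 500 bp of any of the 6. For hsp-16.2 and hsp-16.41 the nearest thresholded summits were 63853 and 63632 bp away, and the nearest pooled summits 14402 and 14181 bp. Within 20000 bp of the midpoint of this pair there were 0 thresholded, 4 pooled, 7 replicate 1 and 3 replicate 2 summits, with no signal above 28.5. This stretch was readable by sequence: 96.2% and 95.7% of the 30-base words within 500 bp of the 2 genes occur once in the genome.

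The other 4 genes, hsp-16.1, hsp-16.48, hsp-16.49 and hsp-16.11, form a duplicated cluster in which none of the 30-base words within 500 bp of their 5' ends is unique (0% for each). Their nearest thresholded summits were 5098 to 7393 bp away with a signal of 42.0, and their nearest pooled summits 739 to 1050 bp away with signals of 6.897 to 15.37. Within 20000 bp there were 2 thresholded, 29 pooled, 21 replicate 1 and 19 replicate 2 summits. Short reads from such repeats cannot be placed in 1 copy, and how the authors treated them is not given in the sources used here, so at these 4 genes missing binding and unplaced reads cannot be told apart. Of the other 59 members, 2 had under 90% unique words, dnj-28 with 74.8% and cct-3 with 89.8%, while 12.5% of all coding genes were under that mark.

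**Figure D5:**
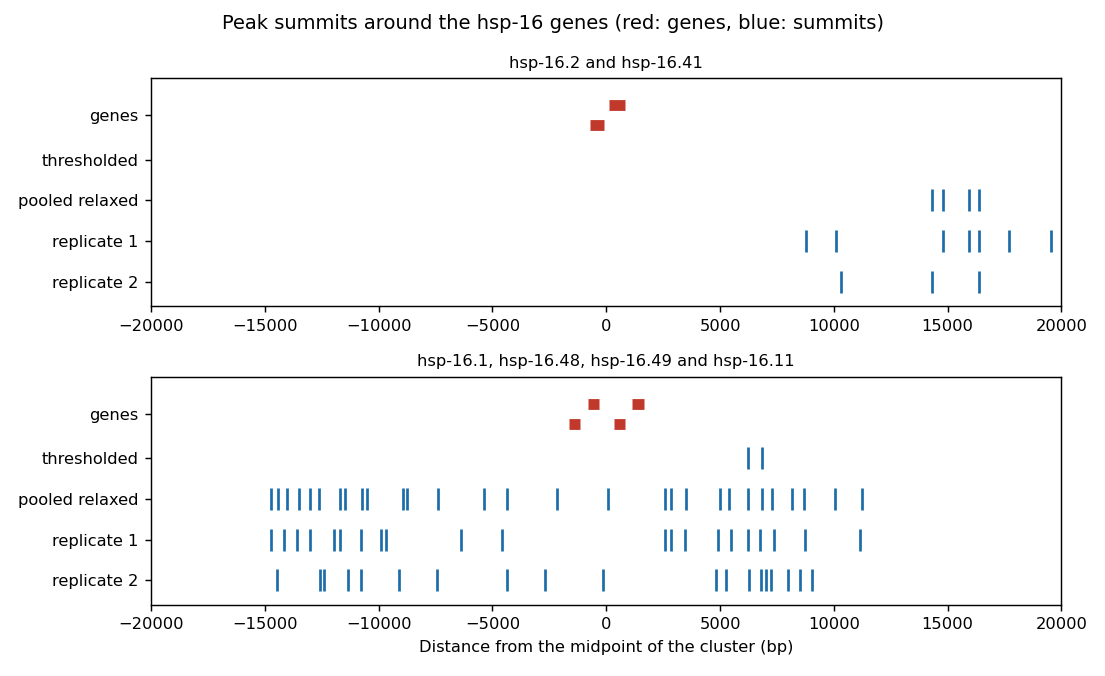
Peak summits (blue ticks) of the 4 lists within 20000 bp of the midpoint of the hsp-16.2 and hsp-16.41 pair (top) and of the cluster of the other 4 hsp-16 genes (bottom), with the genes as red bars, plus strand above minus strand. The top panel has no thresholded tick and no tick in any list nearer than 8757 bp, and the bottom panel has 2 thresholded ticks, the nearest 6227 bp from the midpoint.

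The 7 other small heat shock protein genes had no thresholded summit within 500 bp either. A summit in a relaxed list stood at 4 of the 7 (57.1%), while 40.3% of coding genes had one in any of the 4 lists. The hsp-16 group had 0 of 6, but 4 of those 6 lie in the duplicated cluster, where reads cannot be placed in 1 copy. hsp-12.3 had a summit 102 bp from its 5' end in replicate 1, with a signal of 19.4 at rank 2688, just inside the strongest peaks of that list, and 7.61 in replicate 2 and 10.8 in the pooled list. A thresholded peak with a signal of 131 had its summit 894 bp downstream of its 5' end, past the 3' end of the gene. hsp-12.1, hsp-25 and hsp-43 had summits in relaxed lists only. hsp-12.2, hsp-12.6 and hsp-17 had none.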

How the data were processed

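LIN-35 was profiled in 2 replicates of 1 group. The authors deposited for each peak a signal value, a −log10 q-value and the summit offset in bp; the scale of the signal is not stated, and the q-value was not used for ranking. Per the file headers of the deposited text indexes, relaxed lists were made from alignments and a control, and thresholding was by irreproducible discovery rate. For the aligner and the peak caller, versions and names were not given in the sources used here. The ce11 lists were used and the ce10 lists were not.

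Names and 5' ends came from Ensembl release 115, and products from RefSeq WBcel235. Ensembl gives the name hsp-16.1 and the name hsp-16.48 to 2 genes each; RefSeq names hsp-16.11 and hsp-16.49 separated them. Summits within 500 bp of a 5' end were counted with Python 3.11.15 and NumPy 2.4.6, and the counting was tested on simulated data with planted summits. Members, lists and words were chosen with earlier results of these data known. Named genes were all bound members, all cct, pfd and hsp-16 members, and those among the strongest peaks of either replicate; others are said to be named after their values were seen, or listed by name only. Alternatives were other distances, the strongest 1356 peaks, merged peaks, the nearest 5' end, any transcript's 5' end and single replicates; RefSeq 5' ends were added after seeing the data. No test was made.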

Additional observations from a re-analysis of the deposited data

How the results depend on the processing

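The counts of bound genes depended mainly on distance and on sharing of summits. At 200 bp 9 of 65 chaperone genes were bound, against 4.49% of coding genes. They were 5 of 29 dnj, 0 of 8 cct, 3 of 6 pfd and 1 of 16 hsp genes outside the hsp-16 group (6.25%). At that distance 5 of 65 members had a summit among the strongest peaks of both replicates, against 2.68% of coding genes. With each summit given to its nearest coding 5' end only, 10 of 65 were bound, against 6.71% of coding genes. They were 6 of 29 dnj, 0 of 8 cct, 2 of 6 pfd and 2 of 16 such hsp genes. At 1000 bp 7 of 16 such hsp genes were bound, against 10.9% of coding genes. Leaving out replicate 1 gave 22 chaperone genes against 8.47% of coding genes, and leaving out replicate 2 gave 22 against 7.75%. Merging overlapping peaks into 2665 kept the count at 24, against 8.6% of coding genes. The 5' ends of any transcript gave 25, against 9.17%. The RefSeq ends (added after seeing the data) also gave 25, against 8.56%. In both cases the added gene was hsp-90. With RefSeq ends the hsp-3 summit lies 415 bp away. The hsp-16 count was 0 under each of these. The E2F count was 4 of 24 at 50 bp, against 19.4% of summits, and 3 of 19 in the strongest peaks, against 30.4%. No paired analysis was possible because there is 1 group. Depth is unknown, so a missing summit says only that none was called.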

Other observations

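Genes that work with these chaperones but carry other names were counted in the same way, from lists chosen with earlier results known. Among 48 co-chaperones and other folding genes, 18 were bound (37.5%), against 8.61% of coding genes, and 13 of the 48 had a summit among the strongest peaks of both replicates, against 5.65% of coding genes. The highest signals were at the cyclophilin genes cyn-3 (328), cyn-1 (323) and cyn-10 (277), followed by bag-1, an HSP70 nucleotide exchange factor (228), and sti-1, which links HSP70 and HSP90 (152). The endoplasmic reticulum genes crt-1 (calreticulin), enpl-1 (the GRP94 homolog) and pdi-2 (a disulfide isomerase) had 122, 69.2 and 63.1. sip-1, a small heat shock protein gene outside the name families, had a summit of 145 that lay 249 bp from it and 8 bp from sly-1.

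Of 16 regulators of folding stress responses, 5 were bound (31.2%, against 8.61% of coding genes), and 2 of the 16 had a summit among the strongest peaks of both replicates, against 5.65%. They were ubl-5 (187) of the mitochondrial response, xbp-1 (66.2) of the endoplasmic reticulum response, skn-1 (45.8), daf-16 (42.7) and atfs-1 (42.0). The last 3 were near the lowest thresholded signal of 41.9. Of 11 tubulin and actin genes, the main clients of CCT, 3 were bound (27.3%, against 8.61%): tba-2 (709, rank 24), tbb-1 (177) and act-2 (103). Among the strongest peaks of both replicates, 3 of the 11 (27.3%) had a summit, against 5.65% of coding genes.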
